A study of Mus musculus with 6 samples.

Results

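Hspa8 and Hspb1 are the genes of 2 heat shock chaperones, described here in mouse liver after delivery of a gene by adeno-associated virus (AAV). The pair was chosen by name after earlier results of these data had shown both genes higher with the Ly6d vector, and both are among the 1834 genes of the deposited table. Their levels and differences between the groups are therefore given as a description, without a test. The control livers had the WT genotype and received AAV-GFP, which carries green fluorescent protein (3 libraries), and the other livers, of the genotype Ly6d overexpression, received AAV-Ly6d (3 libraries), which carries the gene of a small membrane-anchored protein. All mice had the same diet. The study title sets the comparison in MASLD, metabolic dysfunction-associated steatotic liver disease. The sources used here give neither strain, age, the diet's name nor the vectors' promoter, and do not say that the replicates are different mice, so the p-values speak only of the spread among these libraries, which may be technical.

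Chaperones bind proteins that are unfolded or still folding and keep them from clumping. Hspa8, also called HSC70, is the cytosolic Hsp70 that cells make without stress; it folds new proteins with ATP, strips clathrin coats from vesicles and hands proteins to lysosomes in chaperone-mediated autophagy. Hspb1 is a small heat shock protein that holds unfolded proteins without ATP and binds actin filaments, and it is strongly induced by heat and other protein-damaging stress. The transcription factor HSF1 drives the heat shock response by binding repeats of GAA and its complement TTC, the heat shock element, in the promoters of chaperone genes.

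The promoters are shown first because HSF1 is known to act through the heat shock element. Hspa8 lies on the plus strand of chromosome 9 from 40800984 to 40810087 (GRCm38), where its coding transcript of 2394 bases has 9 exons and the annotation places 3 snoRNA genes, Snord14c, Snord14d and Snord14e, on the same strand within the gene. Hspb1 lies on the plus strand of chromosome 5 from 135887919 to 135889563, with a coding transcript of 930 bases in 2 exons. A window from 250 bases before to 50 bases after the annotated start was taken from RefSeq (GRCm38.p6) for 13 of the 18 listed chaperone genes in the table; Hspa8, Hsp90aa1, Hsp90ab1, Dnajc5 and Grpel2 had no window. The windows of Hspb1 (chr5:135887669-135887968, plus strand), of Hspa1b, an inducible Hsp70 (chr17:34959189-34959488, minus strand), and of Hsph1, an Hsp110 that recharges Hsp70 with ATP (chr5:149636266-149636565, minus strand), are printed 5′ to 3′, with matches to the heat shock element letters in capitals.
Hspb1: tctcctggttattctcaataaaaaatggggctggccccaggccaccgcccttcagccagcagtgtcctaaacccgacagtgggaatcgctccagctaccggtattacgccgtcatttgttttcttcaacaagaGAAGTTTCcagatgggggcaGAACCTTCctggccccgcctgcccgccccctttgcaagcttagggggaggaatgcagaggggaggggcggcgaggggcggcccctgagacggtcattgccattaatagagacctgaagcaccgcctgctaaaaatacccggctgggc
Hspa1b: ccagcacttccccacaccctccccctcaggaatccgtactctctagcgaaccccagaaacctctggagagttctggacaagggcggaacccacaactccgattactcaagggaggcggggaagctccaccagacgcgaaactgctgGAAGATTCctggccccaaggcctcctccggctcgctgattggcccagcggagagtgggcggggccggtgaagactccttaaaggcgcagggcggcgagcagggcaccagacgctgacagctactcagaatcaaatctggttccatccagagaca
Hsph1: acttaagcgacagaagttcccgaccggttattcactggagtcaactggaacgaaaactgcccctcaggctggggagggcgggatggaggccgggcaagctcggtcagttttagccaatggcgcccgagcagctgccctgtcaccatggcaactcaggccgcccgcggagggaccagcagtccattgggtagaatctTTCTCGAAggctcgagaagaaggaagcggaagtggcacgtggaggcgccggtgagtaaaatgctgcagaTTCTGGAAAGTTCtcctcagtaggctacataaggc

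The letters searched on both strands were GAANNTTC and TTCNNGAA, which are their own reverse complements, and the longer forms GAANNTTCNNGAA and its reverse complement TTCNNGAANNTTC, which contain them. The Hspb1 window held 2 matches of the shorter letters, GAAGTTTC at -117 to -110 and GAACCTTC at -97 to -90, counted with the annotated start base as 0. Hspa1b held 1, GAAGATTC at -104 to -97. The Hsph1 window held TTCTCGAA at -54 to -47 and the longer form TTCTGGAAAGTTC at 15 to 27, inside the transcribed part. Of the 13 chaperone genes with a window, 7 had a shorter match in at least 1 window (Hspb1, Hspa1b, Hsph1, Hspb8, Cct2, Clpp and Nudc) and 1 had a longer one. The same letters occurred in 17.0% of all 27025 genes with a window and in 12.1% of 1222 tested genes of the table, and the longer form in 0.662% and 0.409%. A match describes these letters in this window and does not show that a factor was bound.

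The smallest absolute log2 difference between the groups among the 1780 tested genes was 0.32, and in 84.5% of them the groups did not overlap, so the table holds genes that differ between these libraries. The 6 libraries held between 3248078 and 4359932 reads in the table. Ly6d, the gene of the vector, held 56.1, 9.68 and 182 normalised reads in AAV-GFP and 3181, 1799 and 3275 in AAV-Ly6d, high in every library labelled with its vector. AAV-GFP replicate 2 stood apart: Apob, the gene of the main structural protein of liver lipoproteins, alone took 20.1% of its reads in the table and between 4.49% and 6.41% in the other libraries, and its short transcripts were low. The differences of Hspa8, Hspb1 and many other genes are given with and without it.

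Hspa8 was among the most abundant transcripts of the table and was higher in all AAV-Ly6d libraries. In replicate order, AAV-GFP gave normalised read counts of 33133, 15997 and 27407, and AAV-Ly6d gave 44534, 48412 and 43077. The groups did not overlap, and a ratio of 1.30 separated the nearest libraries, AAV-Ly6d replicate 3 and AAV-GFP replicate 1. The AAV-GFP mean was 25513 ± 8724 and the AAV-Ly6d mean, 1.78 times as high, 45341 ± 2758 (SD, n = 3 each). The AAV-GFP libraries were further apart (coefficient of variation 34.2%) than the AAV-Ly6d libraries (6.08%), and AAV-GFP replicate 2 held 52.8% of the mean of the other AAV-GFP libraries. By its mean over the 6 libraries Hspa8 ranked 22 among the 1780 tested genes. The log2 difference on log2(normalised read count + 1) was 0.89 (SE 0.28).

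Hspb1 was less abundant and differed more. It held 526, 121 and 371 in AAV-GFP and 830, 1312 and 673 in AAV-Ly6d. Again no AAV-GFP library reached an AAV-Ly6d library, with a ratio of 1.28 between the nearest ones. AAV-GFP replicate 2 was the lowest library, at 26.9% of the mean of the other AAV-GFP libraries, and AAV-Ly6d replicate 2 the highest. The AAV-GFP mean was 339 ± 205 and the AAV-Ly6d mean, 2.77 times as high, 939 ± 333 (SD, n = 3 each). The log2 difference was 1.65 (SE 0.52). The spread within a group was wide on both sides, with coefficients of variation of 60.3% in AAV-GFP and 35.5% in AAV-Ly6d. The value of AAV-GFP replicate 2 stands for 112 reads, and the other libraries held between 440 and 1317.

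**Figure D1:**
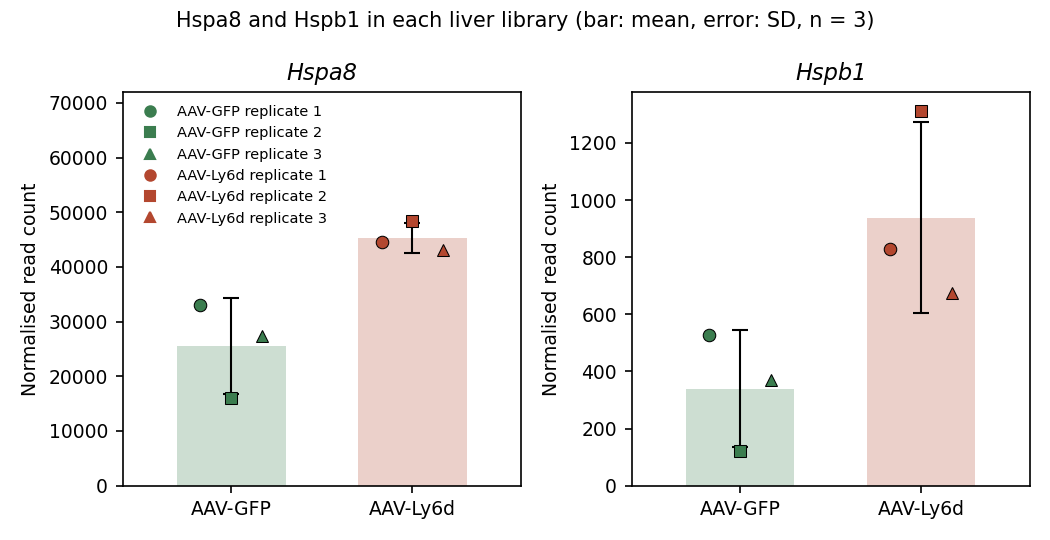
Normalised read count of Hspa8 (left) and Hspb1 (right) in the AAV-GFP and AAV-Ly6d libraries; bars are means, error bars SD (n = 3) and symbols single libraries. In both genes the AAV-GFP replicate 2 library is the lowest (15997 and 121) and every AAV-Ly6d library lies above every AAV-GFP library.

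Both differences depended in size on AAV-GFP replicate 2 and not in direction. Without that library the log2 difference was 0.59 (SE 0.16) for Hspa8 and 1.03 (SE 0.30) for Hspb1, and the ratios of the means were 1.50 and 2.09. The median log2 difference of all tested genes also moved, from -0.67 to -0.40. Against that median, Hspa8 stood 1.56 higher with all libraries and 0.99 higher without AAV-GFP replicate 2, and Hspb1 2.32 and 1.43 higher. Of the tested genes 84.8% had a lower log2 difference than Hspa8 with all libraries and 95.1% had a lower one than Hspb1; without the library these shares were 78.0% and 89.8%.

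The separation of the groups held on the deposited scale and not as a share of the reads in the table. Hspa8 took 1.05%, 0.432% and 0.942% of the table's reads in AAV-GFP and 1.05%, 1.22% and 1.03% in AAV-Ly6d. AAV-GFP replicate 1 thus lay within the AAV-Ly6d range. For Hspb1 the shares were 0.0167%, 0.00325% and 0.0128% in AAV-GFP and 0.0196%, 0.0330% and 0.0161% in AAV-Ly6d, where AAV-GFP replicate 1 lay above AAV-Ly6d replicate 3. The total of the table is not the depth of a library.

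The balance between both chaperones varied from library to library. Per kilobase of coding transcript, the Hspb1 level was 4.09%, 1.94% and 3.49% of the Hspa8 level in AAV-GFP and 4.80%, 6.98% and 4.02% in AAV-Ly6d. AAV-GFP replicate 1 and AAV-Ly6d replicate 3 met at about the same value, so these ranges overlapped. The means were 3.17% ± 1.11 and 5.27% ± 1.53 (SD, n = 3 each). On the same scale of normalised read count per kilobase, Hspa8 was the highest of the listed chaperones, at 10657 in AAV-GFP and 18939 in AAV-Ly6d. Hsp90ab1, the constitutive cytosolic Hsp90, came next with 6045 and 9625. In AAV-GFP the libraries of Hspa8 (6682 to 13840 per kilobase) and Hsp90ab1 (4431 to 7173) overlapped, and in AAV-Ly6d they did not (17994 to 20222 and 9138 to 10284). Hspb8 and Hsp90aa1 followed in both groups by their means, with ranges that overlapped each other. Hspb1 stood at 365 per kilobase in AAV-GFP, with a mean under those of Cct2, Dnaja3, Hsph1, Nudc and Clpp as well as the genes named before. Its libraries there (130 to 566) overlapped those of Hsph1 (250.5 to 588) and Hspa1b (97.5 to 493). They also overlapped those of Cct2, Dnaja3, Nudc, Clpp, Grpel2, Fkbp5, Dnajc5 and Dnajc21. In AAV-Ly6d it stood at 1009 (724 to 1411), with a mean under those of Hspa8, Hspb8 and both Hsp90 genes and above the rest, in a range that still overlapped those of Cct2, Hsph1, Dnaja3, Hspa1b and Fkbp5.

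The other chaperone genes of the table were mostly higher with AAV-Ly6d as well. Of 139 listed network genes besides Hspa8 and Hspb1, 16 were in the table and all 16 were tested. In limma 7 rose, 1 fell and 8 did not pass at an adjusted p under 0.05, while over all 1780 tested genes 15.9% rose and 28.0% fell. The median log2 fold change of the 16 was 0.66, against -0.67 for all tested genes. In 13 of the 16 every AAV-Ly6d library lay above every AAV-GFP library, which was so in 35.2% of the tested genes, and in the other 3 every AAV-Ly6d library lay below (49.3%). In the same 13 AAV-GFP replicate 2 was the lowest of the 6 libraries, against 28.4% of the tested genes. That share is not a like comparison. Where every AAV-Ly6d library lies above, the lowest library must be an AAV-GFP library. The 49.3% of tested genes with every AAV-Ly6d library below cannot have AAV-GFP replicate 2 lowest. Genes with small differences are not in the table, so these counts are not shares of the pathway. The calls also rested on single libraries and on the scale. Without AAV-GFP replicate 2, 7 rose and 1 fell, with 5 of the 7 among those above, against 16.3% and 18.6% of 1738 tested genes. There was 1 rise without AAV-GFP replicate 1 (Grpel2), 1 without AAV-GFP replicate 3 (Fkbp5), and 0 in limma without any of the AAV-Ly6d libraries in turn, where 6 to 8 of the 16 had an unadjusted p under 0.05. In these 5 fits limma called 0 to 139 of all genes. With median ratio factors in place of the deposited scale, 13 of the 16 rose, against 36.6% of tested genes, and 1 fell, against 16.3%. In edgeR on the recovered reads 13 rose with TMM factors (37.5% of tested genes, with 16.8% that fell) and 2 with the deposited size factors (9.04% and 17.1%), and in DESeq2 10 rose (28.3% and 46.9%). In each of these 3 fits 1 of the 16 fell, Hspa12a.

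Hsph1, both cytosolic Hsp90 genes and Cct2, all parts of the cytosolic folding machinery, rose. Hsph1 held 2237, 952 and 1937 in AAV-GFP and 3355, 3464 and 2779 in AAV-Ly6d and rose, with a log2 fold change of 0.99 (SE 0.32, limma adjusted p = 0.0445). Hsp90ab1 held 18077, 11165 and 16461 against 23027, 25917 and 23825 and rose by 0.70 (limma adjusted p = 0.0445), and its inducible partner Hsp90aa1 rose by the same 0.70 (limma adjusted p = 0.0489). For all 3 genes AAV-GFP replicate 2 was the lowest library and the groups did not overlap. Cct2, a subunit of the ring-shaped chaperonin that folds actin and tubulin, rose by 0.61 (limma adjusted p = 0.0497). Without AAV-GFP replicate 2 the log2 fold change was 0.61 for Hsph1, 0.49 for Hsp90ab1 and 0.40 for Cct2, and these 3 still rose. Hsp90aa1 did not pass without that library (0.48, limma adjusted p = 0.0565). Cct2 was the 1 listed chaperonin or prefoldin gene of 14 in the table.

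Hspa1b, the heat-inducible Hsp70, showed the pattern closest to that of Hspb1 in this family without passing the test. It held 1383, 273 and 1038 in AAV-GFP and 1745, 2080 and 2629 in AAV-Ly6d. The order within AAV-Ly6d differed, since replicate 3 was the highest library of Hspa1b and the lowest AAV-Ly6d library of Hspb1. The log2 fold change of Hspa1b was 1.53 (SE 0.54, limma adjusted p = 0.0503), and without AAV-GFP replicate 2 it was 0.82 (limma adjusted p = 0.0395). Its neighbour Hspa1a is nearly identical, with a transcript that matches at 99.2% of aligned bases, so reads of the pair can be shared and the value of the single copy is uncertain. Hspa4l, a further Hsp110, had 0.47 and did not pass. Hspa12a, a distant Hsp70 relative of low level, fell, from 58.3 ± 22.2 to 17.8 ± 5.28 (SD, n = 3 each) and by 1.64 on the log2 scale (limma adjusted p = 0.0363).

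Among the small heat shock proteins 2 of 9 listed genes were in the table, Hspb1 and Hspb8. Hspb8, which works with Bag3 to clear damaged proteins by autophagy, held 3723, 2083 and 3759 in AAV-GFP and 6700, 4941 and 4598 in AAV-Ly6d. It rose by 0.79 (SE 0.28, limma adjusted p = 0.0493), and its highest library was AAV-Ly6d replicate 1, not replicate 2 as for Hspb1. Without AAV-GFP replicate 2 it did not pass (0.51, limma adjusted p = 0.0579), nor did Hsp90aa1 (0.48, limma adjusted p = 0.0565).

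Co-chaperones and chaperones of mitochondria followed with mixed calls. Fkbp5, an Hsp90 co-chaperone that is a known glucocorticoid target, rose most, by 1.92 (SE 0.41, limma adjusted p = 0.0324), from 462, 422 and 1100 in AAV-GFP to 3436, 1943 and 1740 in AAV-Ly6d. Grpel2, the nucleotide exchange factor of the mitochondrial Hsp70, rose by 0.77 (limma adjusted p = 0.0324). Nudc, which assists Hsp90, had 0.83 and did not pass (limma adjusted p = 0.0561), whereas without AAV-GFP replicate 2 it had 0.45 and rose (limma adjusted p = 0.0455). The mitochondrial genes Dnaja3 (0.59) and Clpp (0.54) and the J-domain gene Dnajc21 (0.49) did not pass either. Further J-domain genes were lower, Dnajc5, which acts with Hspa8 at synaptic and secretory vesicles (-0.43), and Dnajb14 (-0.63), and neither passed. These 5 genes did not pass without AAV-GFP replicate 2 either, and their differences were smaller, 0.33 for Dnaja3, 0.33 for Clpp, 0.35 for Dnajc21, -0.29 for Dnajc5 and -0.25 for Dnajb14. Of 22 listed chaperones of the endoplasmic reticulum and 8 genes of heat shock factors and their regulators, Hsf1 included, 0 were among the 1834 genes, so they were not analysed here.

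**Figure D2:**
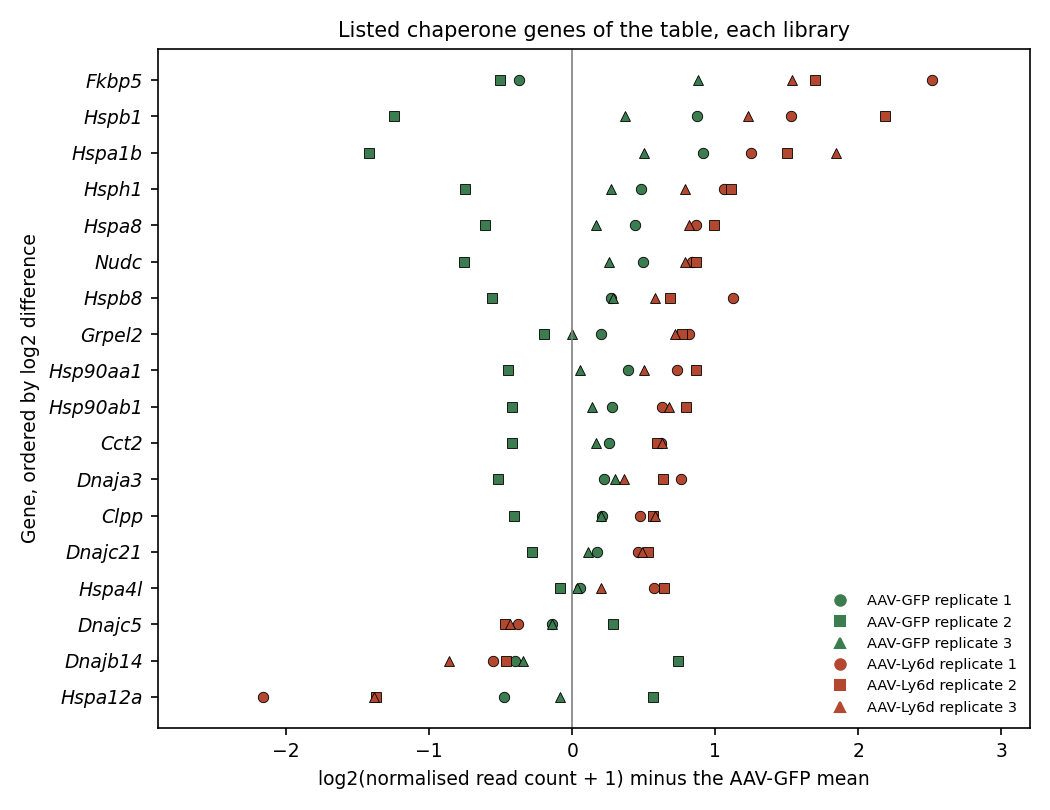
Each of the 18 listed chaperone genes of the table (rows) in the 6 libraries, as log2(normalised read count + 1) minus the mean of the AAV-GFP libraries. AAV-GFP replicate 2 (green squares) is the lowest library in 15 of the 18 rows, and the AAV-Ly6d libraries (red) lie to the right of all AAV-GFP libraries in the same 15.

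In the list of HSF1 target genes, 8 of 33 were in the table, among them Hspa8 and Hspb1. The other 6 are all among the 16 network genes counted above, so they are not a separate set. They had log2 fold changes between 0.47 and 1.53 with a median of 0.75, and 4 of them rose, Hsph1, Hsp90aa1, Hsp90ab1 and Hspb8, against 15.9% of tested genes. Their summed normalised read count ran from 18714 to 32604 in the AAV-GFP libraries and from 41633 to 46459 in the AAV-Ly6d libraries. All 6 had their lowest value in AAV-GFP replicate 2, as did 28.4% of tested genes. In these 6 every AAV-Ly6d library lay above, so the lowest could only be an AAV-GFP library, which is not so for all tested genes. Without AAV-GFP replicate 2 the median was 0.50 and 3 rose, against 16.3% of tested genes, and leaving out each other library in turn left 0 that passed limma, with 3 to 5 of the 6 at an unadjusted p under 0.05.

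**Figure D3:**
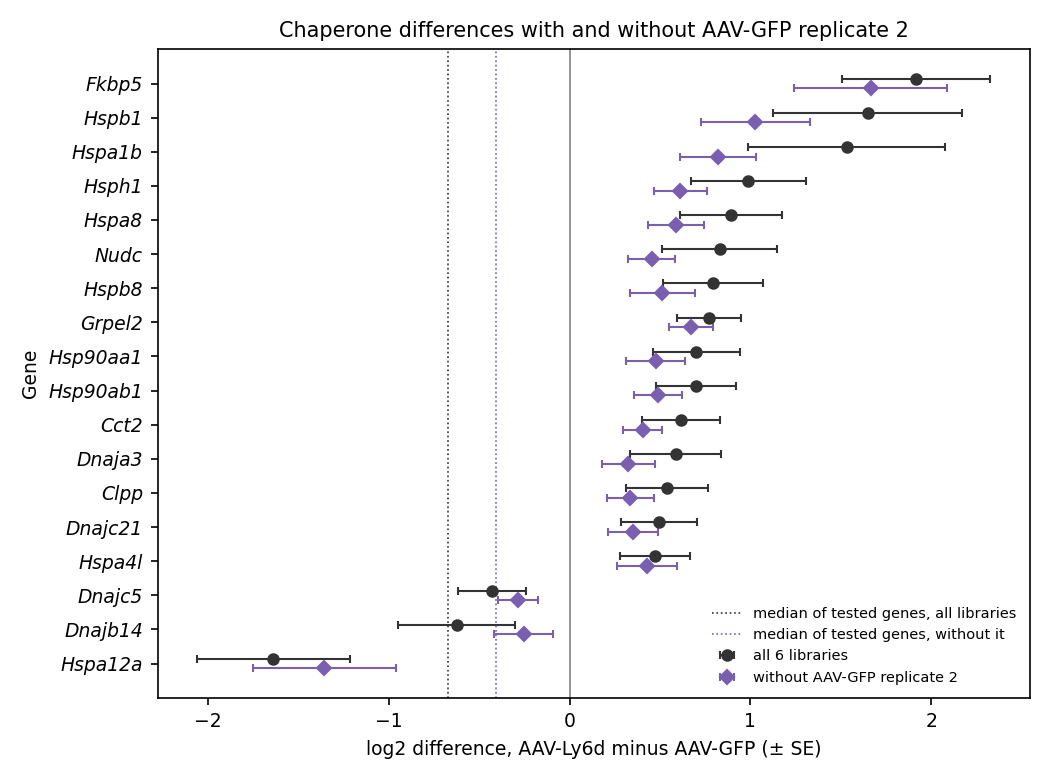
Log2 difference between AAV-Ly6d and AAV-GFP with its SE for the 18 listed chaperone genes, with all libraries (black circles) and without AAV-GFP replicate 2 (purple diamonds); dotted lines are the medians of all tested genes. No gene changes sign, and Hspb1 and Hspa1b move most, to 1.03 and 0.82.

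Transcript length moved with the difference across the table, and so did the standing of AAV-GFP replicate 2. In the shortest quartile of tested genes, 57 to 2038 bases, the median log2 difference was 0.57, and in the quartiles after it 0.39, -0.79 and -0.89. Without AAV-GFP replicate 2 these medians were 0.46, 0.33, -0.58 and -0.63. The share of genes that rose in limma went from 26.5% in the shortest quartile to 3.37% in the longest. Relative to the other AAV-GFP libraries, AAV-GFP replicate 2 was lower by a median log2 of -0.26 in the shortest quartile and higher by 0.73 in the longest. Hspb1 belongs to the shortest quartile and Hspa8 to the next. Both stood above the median of their quartile, and in AAV-GFP replicate 2 both were further below the other AAV-GFP libraries (-1.87 for Hspb1 and -0.91 for Hspa8) than the quartile medians. The part of length in the differences of Hspa8 and Hspb1 was not tested.

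**Figure D4:**
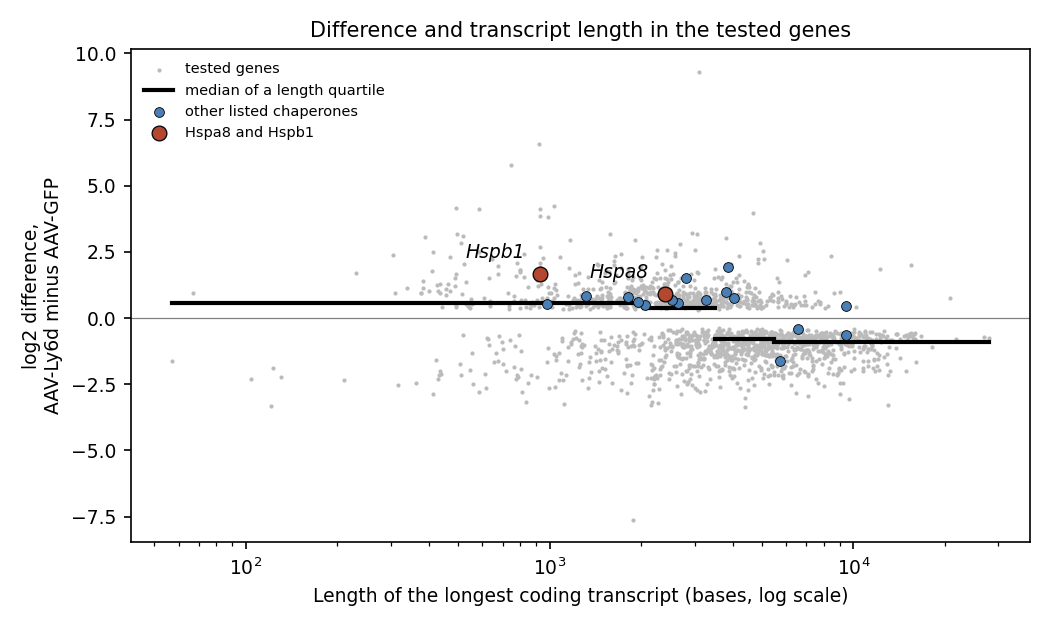
Log2 difference (AAV-Ly6d minus AAV-GFP) against the length of the longest coding transcript (log axis) for the tested genes; black bars are medians of the length quartiles. Hspb1 (1.65 at 930 bases) and Hspa8 (0.89 at 2394 bases) lie above the medians of their quartiles, 0.57 and 0.39.

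Of the 5 genes nearest in profile to each of Hspa8 and Hspb1, only Nudc was a listed chaperone gene. Few of the genes compared are, since the whole table holds 18. Profiles of log2(normalised read count + 1) over the 6 libraries, each centred on its own mean, were compared with 864 other tested genes of at least the median level by their root mean square distance. Nearest to Hspa8 were Nudc (0.085), Ccnf, the gene of cyclin F (0.087), Gucd1 (0.087), Rbpms, an RNA-binding protein gene (0.092), and Erf, an ETS-domain repressor gene (0.093), against a median distance of 0.52. Hsph1 ranked 9, Hsp90aa1 26 and Hsp90ab1 28. Nearest to Hspb1 were Sorbs3, the gene of the adhesion adaptor vinexin (0.19), Tedc2 (0.28), Gstp1, a glutathione transferase gene (0.34), Nlrp12 (0.35) and Crcp (0.35), against a median of 0.96. Hspa1b ranked 9 for Hspb1, Hsph1 24 and Hspa8 51. In all 10 of these nearest genes AAV-GFP replicate 2 was the lowest library. The measure includes that library and the difference between the groups, so both likenesses follow in part from how these genes were picked.

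Hepatocytes make up most of liver RNA, and Hspb1 is also made by endothelial and muscle cells. Of 4 hepatocyte markers in the table (of 15 listed) 2 rose, against 15.9% of tested genes, Apoa1 by 1.12 (0.69 without AAV-GFP replicate 2) and Hnf4a by 0.65. The other 2 did not pass, Serpina1a (0.41) and Apob (-0.61, and 0.03 without AAV-GFP replicate 2). All 11 endothelial markers in the table (of 17 listed) fell, with and without that library, against 28.0% and 18.6% of tested genes, with a summed normalised read count of 8045 to 12581 in AAV-GFP and 2941 to 3814 in AAV-Ly6d. Both smooth muscle markers in the table (of 8 listed), Mylk and Actg2, fell; without AAV-GFP replicate 2 Mylk fell and Actg2 was too low to test. The 8 stellate cell markers (of 15) had a median log2 fold change of -1.45, and 6 fell, or 4 without AAV-GFP replicate 2. For the smooth muscle and stellate markers the shares of tested genes that fell are those given for the endothelial markers. The erythroid gene Hba-a1 fell by 0.89 on the log2 scale, and did not pass without AAV-GFP replicate 2 (limma adjusted p = 0.0565). Among bile duct markers 2 of 10 were in the table and both rose, Tff3 by 4.17 and Sox9 by 1.38, against 15.9% of tested genes. Krt19, Krt7 and Epcam were not among the 1834 genes, nor were any of 12 macrophage and 10 lymphocyte markers. In bulk tissue, fewer cells of a type and less RNA per cell cannot be told apart, and the part of these markers in the differences of Hspa8 and Hspb1 was not tested. AAV-Ly6d replicate 2, the highest library for both chaperones, had the lowest Ly6d level of its group.

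Copies of both genes limit how far reads can be assigned. In the GENCODE transcripts, 8 other genes matched the Hspa8 transcript with at least 90% identity over at least 50% of its length, 7 of them pseudogenes, and 1 gene, Gm9817, matched Hspb1. The highest identity over aligned bases was 99.7% for Hspa8 and 99.8% for Hspb1. Reads can thus be shared here as for Hspa1b (99.2%), and the values of the single copies are uncertain. None of these copies was among the 1834 genes. The sources used here do not say how reads that fit several copies were assigned.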

How the data were processed

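RNA sequencing of liver was compared between 3 AAV-GFP and 3 AAV-Ly6d libraries. The submitters' processing notes list Bowtie 0.12.2 and mm10, with no role. For the counter, its strand setting and the normalisation, nothing is stated in the sources used here. The authors' deposited table gives a signal of 0 or above, normalised read counts, for 1834 genes. In each deposited column all values were whole multiples of 1 step (within 0.001), the form of reads divided by a size factor per library, and the recovered reads summed to between 3248078 and 4359932. These sums are not library depths. Which rule kept the 1834 genes is not given. Since genes with small differences are missing, adjusted p-values hold within the table only and understate the error.

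Hspa8, Hspb1, the 23 gene lists and the tests were chosen with earlier results of these data known. Symbols, coordinates and transcript lengths come from GENCODE M21 on GRCm38, the assembly of mm10, and 1833 of 1834 identifiers had a symbol. Length is that of the longest coding transcript. limma 3.58.1 in R 4.3.3 (mean-variance trend, no covariates) was fitted on log2(value + 1) to the 1780 genes that reached a value of 1 in 3 libraries or more, with Benjamini-Hochberg adjustment over all of them. "Rose" and "fell" mean an adjusted p under 0.05 in this fit. Fold changes on this scale understate the change of low genes. Named are Hspa8, Hspb1, Ly6d, the listed chaperone genes, up to 4 genes with the smallest p of the other lists and the 5 genes nearest in profile to each of Hspa8 and Hspb1, without unnamed gene models; Psmc2, Klf4, Apob and further markers were named after their values were seen. The fit was tested on simulated data in which most genes did not change and no library stood apart. The deposited table differs in both, so that test does not vouch for the calls made here. Near copies were sought with blastn 2.17.0. Alternatives were a replicate block, leaving out each library, other pseudocounts and filters, median ratio rescaling and no trend. On the recovered reads, edgeR 4.0.16 (quasi-likelihood) and DESeq2 1.42.0 were chosen after seeing the data. One marker gene and its list's summary are not reported here.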

Additional observations from a re-analysis of the deposited data

How the results depend on the processing

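Hspa8 and Hspb1 were higher in AAV-Ly6d under all 16 alternatives, with log2 differences from 0.59 (without AAV-GFP replicate 2) to 1.24 (median ratio rescaling) for Hspa8 and from 1.03 (without AAV-GFP replicate 2) to 2.09 (without AAV-GFP replicate 1) for Hspb1. Calls were less stable than directions. Leaving out 1 library gave 0 to 607 calls among all tested genes against 782, 0 to 8 among the 16 other chaperone genes against 8, and 0 to 3 among the 6 other HSF1 targets against 4. These 6 HSF1 targets are part of the 16. Without AAV-Ly6d replicate 1 limma called 0 genes, with 773 at an unadjusted p under 0.05. With the replicate number as a block 48 genes were called in all, 0 chaperone genes (10 at an unadjusted p under 0.05) and 0 HSF1 targets (5 at an unadjusted p under 0.05); the pairing check does not show that the numbers pair the libraries, since 0 of 6 correlated best with their own number. Chaperone calls were 14 after median ratio rescaling, 14 in edgeR with TMM factors, 3 in edgeR with the deposited size factors, 3 without the trend, and 5 with a pseudocount of 5, with no filter and with a filter that asks for 10 in 3 libraries. HSF1 target calls were 0 without the trend (5 at an unadjusted p under 0.05 in limma), 0 in edgeR with the deposited size factors (6 at an unadjusted p under 0.05; DESeq2 called 6), and 2 with a pseudocount of 5, with no filter and with the filter at 10. All tested genes gave 465 calls in edgeR with the deposited size factors and 1338 in DESeq2. Rescaling by the median ratio moved the median log2 fold change of all genes by 0.34, and 69.2% of its calls were higher against 36.2% on the deposited scale; with TMM factors 69.1% were, without AAV-GFP replicate 2 46.6% and without the trend 25.2%. For the 16 other chaperone genes 0 fold changes changed sign under these settings, where 13 stayed higher and 3 lower. The cause of these changes was not tested. Depth does not limit Hspa8, with at least 14866 reads per library, as much as Hspb1, with as few as 112.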

Other observations

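Genes of protein breakdown and of other stress programmes, from lists chosen in the same way, were also in the table. All 9 ubiquitin and proteasome genes in the table (of 36 listed) had a higher mean in AAV-Ly6d and groups that did not overlap, against 35.2% of tested genes, with log2 fold changes from 0.36 to 0.63 and a median of 0.46. Their median length was 1541 bases, and in the shortest quartile of tested genes 59.9% lay higher in this way. AAV-GFP replicate 2 was the lowest library in 7 of the 9, against 28.4% of tested genes. Since all 9 lay higher, their lowest library could only be an AAV-GFP library, which is not so for all tested genes. In limma 1 of the 9 rose, Sqstm1, the autophagy receptor that collects ubiquitinated proteins (0.63, adjusted p = 0.0414), and without AAV-GFP replicate 2 the proteasome ATPase genes Psmc5 and Psmc2 rose with it (limma adjusted p = 0.0469 and 0.0478). Of all tested genes 15.9% rose, and 16.3% without that library.

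Of 23 immediate early genes 6 were in the table, and 3 rose, Nab2 (2.46), Junb (1.85) and Btg2 (1.21), while Egr1 did not pass (1.28, limma adjusted p = 0.0522). For this and the following lists, the shares over all tested genes were 15.9% that rose and 28.0% that fell. Without AAV-GFP replicate 2 they were 16.3% and 18.6%. When AAV-GFP replicate 2 was left out Nab2 (1.74) and Junb (1.25) rose, Egr1 rose (0.70, limma adjusted p = 0.0436), Btg2 did not pass (1.11, limma adjusted p = 0.0616) and Klf4 fell (-1.37, limma adjusted p = 0.0349). In the integrated stress response list 2 of 6 genes in the table rose, Fgf21 (2.28) and Trib3 (1.23), 1 fell, Vldlr (-2.58), and Atf5 did not pass (1.53). The calls of these 4 genes without AAV-GFP replicate 2 were the same, with 1.40 for Fgf21, 0.87 for Trib3, -2.34 for Vldlr and 0.86 for Atf5. Among 4 antioxidant and metal-response genes in the table Mt1 rose (2.31), but did not pass without AAV-GFP replicate 2 (2.37, limma adjusted p = 0.0682). Hmox1, the heme oxygenase gene that is also a heat shock gene, had 378, 53.8 and 332 in AAV-GFP and 410, 1130 and 542 in AAV-Ly6d and did not pass with all libraries (1.73, limma adjusted p = 0.0625) or without AAV-GFP replicate 2 (0.83, limma adjusted p = 0.103). As for Hspb1, its lowest library was AAV-GFP replicate 2 and its highest AAV-Ly6d replicate 2. Calls with other single libraries left out were not counted for these lists.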
